A study of Homo sapiens with 10 samples.

Results

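Eph receptors are receptor tyrosine kinases of the cell surface, and ephrins are their membrane-bound ligands on neighbouring cells. The genes described here are 10 members of that family, chosen by symbol from 29403 named genes on the array: 6 receptors (EPHA1, EPHA2, EPHA4, EPHB2, EPHB3 and EPHB4) and 4 ligands (EFNA1, EFNA5, EFNB1 and EFNB2). Each was read by 1 probe set, so 10 probe sets stood for the 10 genes among 48144 tested. The cells were UT-SCC-12a, an established human line of squamous cell carcinoma of the skin, a tumour of keratinocytes. One group was stably transduced with shMIMIC lentiviral particles to overexpress miR-23b-3p, and the control group carried a scrambled RNA delivered in the same way, so both groups went through transduction. Total RNA of 5 samples per group was hybridized to Affymetrix human gene arrays, and the values are log2 RMA values, in which a difference of 1 is a doubling. Separate cultures are not stated for the 5 samples within each group, nor whether a line was a clone. The p-values therefore cover array-to-array spread, which may be technical, and the small number of arrays limits the precision.

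A-type ephrins are held in the membrane by a lipid anchor, whereas B-type ephrins cross the membrane and carry a cytoplasmic tail. Receptors of the A class mostly bind A-type ligands and those of the B class mostly B-type ligands, with exceptions such as EPHA4, which binds both. Contact between cells sends a forward signal into the receptor-bearing cell and a reverse signal into the ligand-bearing cell, and both act largely through the actin cytoskeleton on adhesion, repulsion and cell sorting. In epidermis EPHA2 and its ligand ephrin-A1 are known for roles in keratinocyte contact and differentiation.

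The agent that separates the groups is shown by its sequence, because its seed, the stretch of bases 2 to 8 in capitals, is what pairs with target transcripts. RefSeq lists 3 human mature microRNAs with the seed UCACAUU, and the overexpressed one lies at chr9:95085265-95085287 on the plus strand of GRCh38.p14.
hsa-miR-23b-3p: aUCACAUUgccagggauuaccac
hsa-miR-23a-3p: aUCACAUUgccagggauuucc
hsa-miR-23c: aUCACAUUgccagugauuaccc
The 3 share the seed and differ only outside it. Whether transcripts of the 10 genes hold matches to this seed was not analysed here.

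The arrays of the groups were alike in most overall measures. Within groups, the correlation between any pair of arrays was at least 0.991, and array medians lay between 3.14 and 3.19. Poly-A spikes, which are bacterial transcripts put into each sample as a labelling control, read 5.20 to 5.46 on the miR-23b-3p arrays and 5.44 to 5.48 on the control arrays (exact two-sided permutation p = 0.0238). The mean of the antigenomic background probes, which match no human sequence, lay between 3.25 and 3.46 per array. Of 9 keratinocyte markers 8 were above that background on all arrays, with TP63 at a mean of 8.63, KRT5 at 8.19 and DSG3 at 9.85. KRT14 at 3.70, KRT6A at 3.72 and KRT17 at 3.82 lay close to it, and KRT16 read 4.33. Of 19 markers of fibroblasts, endothelium, blood and melanocytes 3 (COL1A1, CDH5 and KDR) were above background on all arrays, none over 4.50 in mean, and 0 passed limma's adjusted threshold. KRT14, KRT6A, KRT17 and KRT16 were under 4.50 too. RRAS2, the target named in the series title, stood lower with miR-23b-3p by 0.18 (SE 0.063; exact permutation p = 0.00794). Its groups did not overlap, as in 1.35% of all probe sets and 3.16% of those with a mean above 5. The MIR23B hairpin probe set differed by 0.22 (SE 0.12), with overlap. Mature miR-23b-3p was not measured separately, so this value does not show how far it was overexpressed. Neither RRAS2 nor MIR23B passed over all probe sets (limma adjusted p = 0.665 and 0.799).

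No Eph receptor or ephrin of the 10 passed the test for a difference between miR-23b-3p and control cells. The 10 differences were small, from -0.18 for EFNB1 to 0.16 for EPHB4 on the log2 scale, with 5 genes higher and 5 lower and a median of 0.001. By limma with Benjamini-Hochberg adjustment over 48144 probe sets, adjusted p ran from 0.775 to 0.997. The background share of probe sets past that threshold was 0.0187%, 9 in all. At an unadjusted p under 0.05, 0 of the 10 passed, where 6.63% of all probe sets did, 3.67% as higher and 2.95% as lower. The 5 arrays of one group lay fully to one side of the other 5 in 0 of the 10, against 1.35% of all probe sets. Over all tested probe sets the median difference was 0.002 and the median size of a difference 0.07, against 0.03 for the 10 genes. Among probe sets with a mean above 5, as all members but EPHB3 had, 8.58% passed at an unadjusted limma p under 0.05. In that set 3.16% had groups without overlap, and the median size of a difference was 0.062.

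The intervals of the differences show how precisely each was measured, given the spread between arrays. Since that spread may be technical, they do not bound a difference between separate cultures. All 10 of limma's 95% intervals, each taken alone, included 0. The highest upper bound of any member was a 1.29-fold increase, for EPHB4, and the lowest was a 1.31-fold decrease, for EFNB1. Standard errors ran from 0.055 for EPHA2 to 0.146 for EFNA1, so the intervals are not equally tight. These errors are limma's moderated ones, so each also borrows from the spread over all probe sets. RNA was taken from whole cultures, in which fewer cells that express a gene and less of its RNA per cell cannot be told apart.

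**Figure D1:**
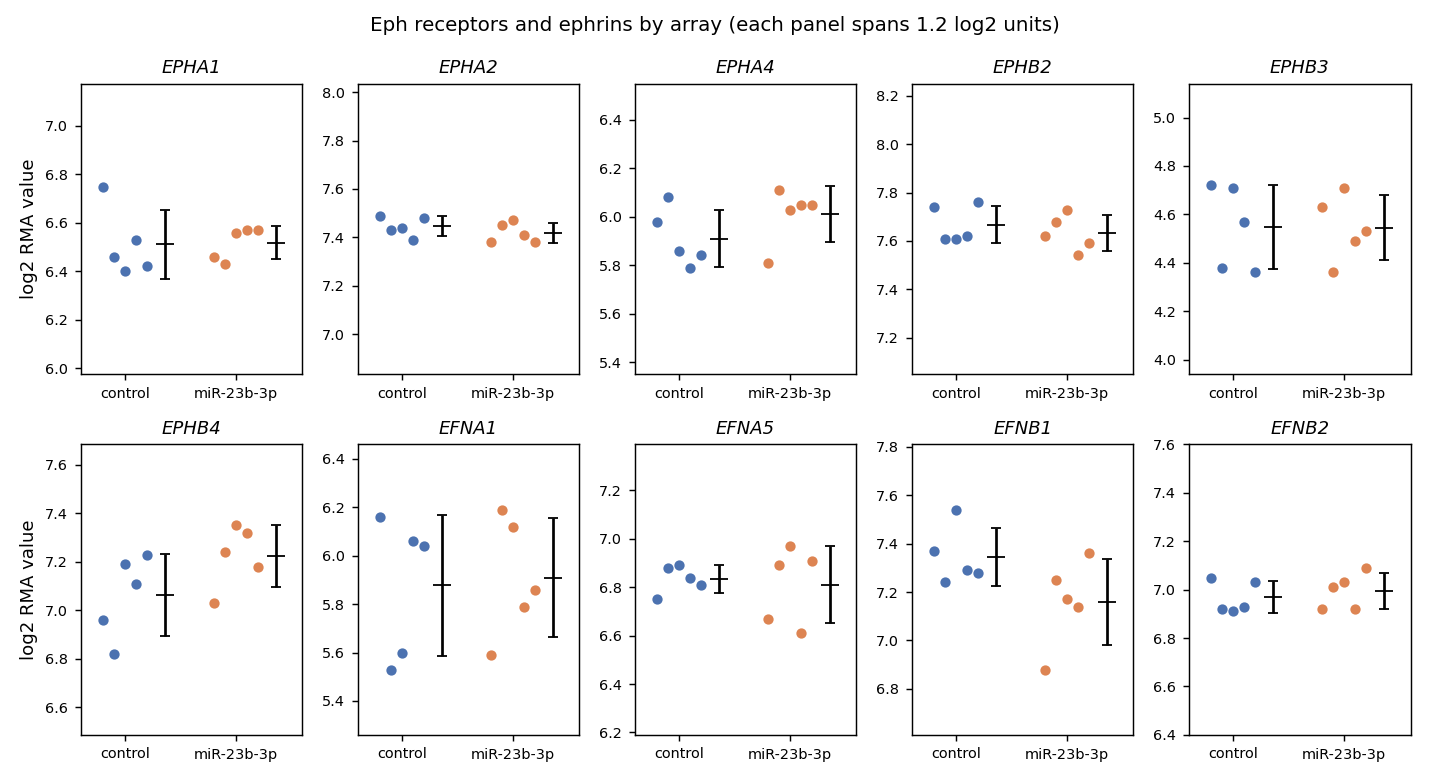
Log2 RMA values (y axis, 1.2 units in each panel) of the 10 genes on each array, with points for the 5 control arrays (left) and 5 miR-23b-3p arrays (right) and bars for the mean ± SD of each group. The groups overlap in every panel, and EFNA1 has the widest spread within groups while EPHA2 has the narrowest.

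Among the A receptors, EPHA2 was the most evenly measured gene of the 10. This receptor, prominent in keratinocytes and carcinomas, read 7.49, 7.43, 7.44, 7.39 and 7.48 on control arrays 1 to 5 and 7.38, 7.45, 7.47, 7.41 and 7.38 on miR-23b-3p arrays 1 to 5. All 10 values fell within 0.11, and miR-23b-3p arrays 1 and 5 lay just under the lowest control array. The means were 7.42 ± 0.041 (SD, n = 5) and 7.45 ± 0.040 (n = 5) in controls, a difference of -0.028 (SE 0.055; exact two-sided permutation p = 0.333). The interval of the EPHA2 fold ran from 0.903 to 1.07, the tightest of the set.

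EPHA4, the receptor that accepts ligands of both classes, was the A receptor with the largest difference. Control arrays 1 to 5 read 5.98, 6.08, 5.86, 5.79 and 5.84, and miR-23b-3p arrays 5.81, 6.11, 6.03, 6.05 and 6.05. Of the miR-23b-3p arrays 4 lay above the control median and 1 near the bottom of the control range. The EPHA4 difference was 0.10 (SE 0.078; limma adjusted p = 0.863; exact permutation p = 0.23), with an interval of -0.07 to 0.27. Without miR-23b-3p replicate 1 it was 0.15, and limma's adjusted p in that fit was 0.768.

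EPHA1, a receptor of epithelial tissues including epidermis, had means of 6.52 ± 0.068 (SD, n = 5) with miR-23b-3p and 6.51 ± 0.14 (n = 5) in controls. Its control arrays ranged from 6.40 to 6.75, the top value being replicate 1, and its miR-23b-3p arrays from 6.43 to 6.57. The EPHA1 difference of 0.006 (SE 0.076) had an interval from -0.16 to 0.17.

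Of the B receptors, EPHB4 differed most. EPHB4, known as the receptor of ephrin-B2 in the separation of arteries from veins, read 6.96, 6.82, 7.19, 7.11 and 7.23 on control arrays 1 to 5. With miR-23b-3p it read 7.03, 7.24, 7.35, 7.32 and 7.18. Replicates 2, 3 and 4 of the miR-23b-3p group stood above every control array, while replicates 1 and 5 lay inside the control range. Means were 7.22 ± 0.13 (SD, n = 5) against 7.06 ± 0.17 (n = 5), a 1.12-fold difference (log2 0.16, SE 0.092; limma adjusted p = 0.812; exact permutation p = 0.135). Controls 1 and 2 were the lowest arrays, and without control replicate 2 the EPHB4 difference was 0.10.

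EPHB2 and EPHB3, which position cells in the intestinal epithelium, gave differences of -0.036 (SE 0.064) and -0.004 (SE 0.094). EPHB2 ranged from 7.61 to 7.76 in controls and from 7.54 to 7.73 with miR-23b-3p, where replicates 4 and 5 lay below the control range. EPHB3 ranged from 4.36 to 4.72 in controls and from 4.36 to 4.71 with miR-23b-3p, so the ranges nearly coincided. The EPHB3 interval, -0.21 to 0.20, was wider than that of EPHB2, -0.17 to 0.10.

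EFNB1 had the largest difference of the 10 and the smallest p. It encodes ephrin-B1, an X-linked B-type ligand known from craniofrontonasal syndrome. Control arrays 1 to 5 read 7.37, 7.24, 7.54, 7.29 and 7.28, and miR-23b-3p arrays 6.88, 7.25, 7.17, 7.14 and 7.36. Replicates 1, 3 and 4 of the miR-23b-3p group lay below every control array, replicate 2 lay just above the lowest control and replicate 5 lay inside the control range, above 3 of the 5 controls. Means were 7.16 ± 0.18 (SD, n = 5) and 7.34 ± 0.12 (n = 5), a 1.14-fold lower value with miR-23b-3p (log2 -0.18, SE 0.092; limma unadjusted p = 0.0692, adjusted p = 0.775; exact permutation p = 0.0873).

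The size of the EFNB1 difference changed when single arrays were left out and when the spikes were entered. Without miR-23b-3p replicate 1 the difference was -0.11. Without miR-23b-3p replicate 5 it was -0.23 (limma adjusted p = 0.706). The exact permutation p without that array, 0.0238, was the only one of any member under 0.05 when an array was left out. These permutation tests, 1 for each member and array left out, were not adjusted for their number. With each array's poly-A spike mean entered as covariate, the EFNB1 difference was -0.08 (SE 0.13; limma adjusted p = 0.946). Because the spike means differed between the groups, that fit cannot cleanly separate spike level from group.

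EFNB2, the transmembrane ligand of EPHB4, ranged from 6.91 to 7.05 in controls and from 6.92 to 7.09 with miR-23b-3p. Its difference was 0.026 (SE 0.062), and the interval of its fold ran from 0.927 to 1.12; only EPHA2 had a smaller SE. The B ligands thus gave values of opposite sign, neither of which passed.

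EFNA1, the ligand of EPHA2, varied most between arrays of the same group. Control arrays 1 to 5 read 6.16, 5.53, 5.60, 6.06 and 6.04, and miR-23b-3p arrays 5.59, 6.19, 6.12, 5.79 and 5.86. Control arrays 2 and 3 and miR-23b-3p array 1 sat together at the bottom, while control array 1 and miR-23b-3p arrays 2 and 3 were the highest, so both groups spanned nearly the whole range. The SD within groups was 0.27 for EFNA1 and 0.041 for EPHA2, where the median over probe sets with a mean above 5 was 0.109. The EFNA1 difference of 0.032 (SE 0.15; exact permutation p = 0.833) therefore had a wide interval, from -0.29 to 0.35.

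EFNA5, an A-type ligand that can also bind EPHB2, spread more widely with miR-23b-3p than in controls. Its control arrays lay between 6.75 and 6.89 (SD 0.057, n = 5). The miR-23b-3p arrays lay between 6.61 and 6.97 (SD 0.16, n = 5), with replicates 1 and 4 below and replicates 3 and 5 above all controls. Differences in spread were not tested, and EPHA1, EPHB3, EPHB4 and EFNA1 spread more widely in controls. The EFNA5 difference of means was -0.024 (SE 0.079), and with the spike covariate it was 0.12 (SE 0.095).

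EFNA1 has 2 neighbouring A-type ligand genes. In hg19 coordinates the EFNA4, EFNA3 and EFNA1 probe sets follow each other on chromosome 1, at 155036207 to 155042029, 155051348 to 155060014 and 155099936 to 155107386. EFNA4, which encodes ephrin-A4, read 5.48, 6.01, 6.04, 5.46 and 5.90 on miR-23b-3p arrays 1 to 5, and between 5.61 and 5.81 in controls. Replicates 1 and 4 were thus the low arrays of that group for EFNA4 as for EFNA5 and EFNA1, and replicates 2 and 3 lay above both of them for each of these 3 ligands. EFNA3 did not follow this order, with its lowest miR-23b-3p value, 4.72, on replicate 2 and its highest, 5.44, on replicate 5. The order was not particular to A-type ligands. Among the miR-23b-3p arrays the B-type ligand genes EFNB1 (6.88 and 7.14) and EFNB2 (6.92 on both) were also lowest on replicates 1 and 4, as was INPPL1 outside the family. Replicates 1 and 4 also had the lowest poly-A spike means of all arrays, 5.34 and 5.203. The other miR-23b-3p arrays read 5.355 to 5.461. Whether spike level and this order are linked was not tested.

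The 10 probe sets differ in place and share their probe design. Each had cross-hybridization type 1, the class for probes unique to 1 transcript cluster, and between 19 and 35 probes. EPHA2 (hg19 chromosome 1, 16450832 to 16482582, minus strand) and EPHB2 (chromosome 1, 23037331 to 23241823, plus strand) lie on the same arm, and EFNA1 on the other arm of chromosome 1 on the plus strand. EPHB4 (100400187 to 100425143) and EPHA1 (143087382 to 143105985) are both on the minus strand of chromosome 7. EPHA4 lies on chromosome 2 (222282747 to 222438922, minus), EPHB3 on chromosome 3 (184279572 to 184300197, plus) and EFNA5 on chromosome 5 (106712590 to 107006596, minus). EFNB2 lies on chromosome 13 (107142079 to 107187462, minus) and EFNB1 on X (68048840 to 68062007, plus). These spans are those of the annotated transcript clusters, introns included.

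All 10 genes were above the antigenomic background on 10 of 10 arrays. Passing that mark alone does not show expression, since the markers COL1A1, CDH5 and KDR of other cell types passed it too. EPHB3, with values from 4.36 to 4.72, lay nearest to this background among the 10. Apart from that comparison, levels of different probe sets were not set against each other. Of the 12 other family genes 3 were above the background on all arrays, EFNA3, EFNA4 and EPHB6, the last a receptor without kinase activity. EPHA3, EPHA5, EPHA6, EPHA7 and EPHA10 were above it on 0 arrays, with all values between 2.26 and 2.94. EPHA8, EPHB1, EFNA2 and EFNB3 crossed it on 3 to 6 arrays. So 13 of the 22 family genes read above this background throughout.

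None of the 12 other family genes passed either. Their median difference was 0.029, with 9 higher and 3 lower, and the lowest limma adjusted p was 0.849. EFNA3 had the largest difference, 0.21 (SE 0.157), with an interval from -0.13 to 0.55. EPHB6 stood at 0.042 (SE 0.069) and EFNA4 at 0.06 (SE 0.118). Among those near background EFNA2 stood at -0.12, EPHA5 at -0.092, EPHB1 at 0.07, EPHA3 at 0.066 and EPHA8 at 0.06. EPHA7 at 0.016, EPHA6 at -0.014, EPHA10 at 0.01 and EFNB3 at 0.01 were closest to 0.

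**Figure D2:**
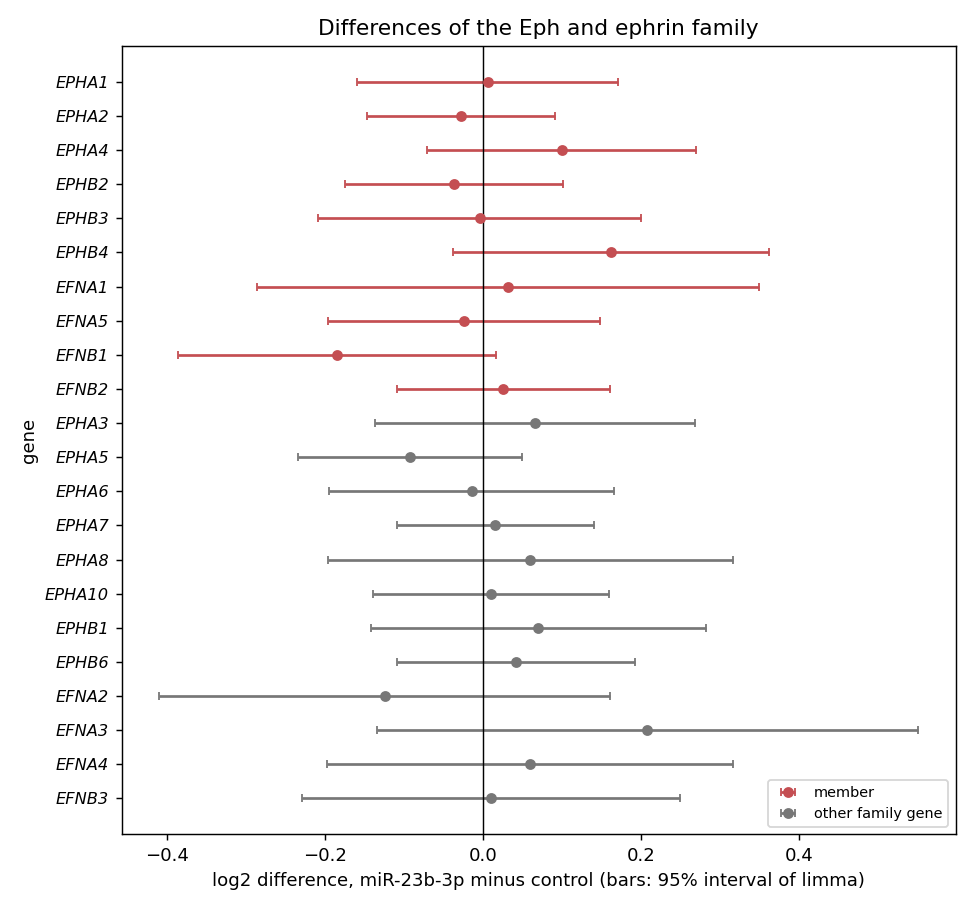
Log2 difference, miR-23b-3p minus control (x axis), for the 22 family genes (y axis), with points for the estimate and bars for limma's 95% interval; red marks the 10 genes described and grey the 12 others. Every interval crosses 0, and EFNB1 and EPHB4 lie farthest from it among the 10.

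Genes that carry Eph and ephrin signals were followed in 5 further lists of 77 measured genes. With limma 0 of the 77 passed the adjusted threshold, and the lowest adjusted p was 0.521. At an unadjusted p under 0.05 there were 7, 5 higher and 2 lower, or 9.09% against 6.63% of all probe sets and 8.58% of those with a mean above 5. Their median difference was 0.02.

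The forward signalling list, adaptors and exchange factors that bind activated receptors, held 26 genes with a median of 0.037, 15 higher and 11 lower. The SH2 and SH3 adaptors of the NCK pair stood on opposite sides. NCK2 read 8.68 to 8.81 with miR-23b-3p and 8.52 to 8.65 in controls, without overlap, a difference of 0.14 (SE 0.057; limma adjusted p = 0.724). NCK1 read 7.14 to 7.34 against 7.32 to 7.47, a difference of -0.15 (SE 0.064; limma adjusted p = 0.734). INPPL1, the lipid phosphatase SHIP2 that binds the SAM domain of EPHA2, stood at 0.18 (SE 0.085; limma adjusted p = 0.755).

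Kinases and cytoskeletal effectors, 18 genes, had a median of -0.007, and 0 had an unadjusted p under 0.05. The smallest p belonged to the actin-severing protein gene CFL1 at -0.094 (SE 0.061), above background on 1 array only, the cofilin kinase gene LIMK2 at 0.11 (SE 0.077) and PAK1, a kinase activated by RAC and CDC42, at -0.084 (SE 0.062).

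Partners of reverse signalling, 11 genes with a median of -0.016, held the highest and the lowest difference of the 5 lists. CNKSR1, a scaffold that binds ephrin-B1, read 5.53 to 5.78 with miR-23b-3p and 4.97 to 5.55 in controls, a difference of 0.33 (SE 0.11; limma adjusted p = 0.637). GRIP1, a PDZ protein that binds B-type ephrin tails, stood at -0.24 (SE 0.092; limma adjusted p = 0.699) at one probe set and at -0.042 (SE 0.104) at another. PICK1, also a PDZ protein, stood at -0.12 (SE 0.088).

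In the list on shedding and turnover, 12 genes with a median of 0.024, CBL was the gene with the smallest p. CBL, the ubiquitin ligase that sends activated receptors to degradation, read 7.44, 7.45, 7.49, 7.44 and 7.35 on control arrays and 7.60, 7.60, 7.56, 7.52 and 7.68 with miR-23b-3p. Its groups did not overlap, with a difference of 0.16 (SE 0.058; limma unadjusted p = 0.0182, adjusted p = 0.68). The phosphatase gene PTPN1 stood at 0.14 (SE 0.062; limma adjusted p = 0.741) and the gamma-secretase subunit gene NCSTN at 0.078 (SE 0.054). ADAM10, the protease that sheds ephrins, stood at 0.002 (SE 0.06).

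Epithelial partners of EPHA2, 10 genes with a median of 0.022, included the claudin gene CLDN4. CLDN4, whose protein is a tight junction component that EPHA2 can phosphorylate, read 4.90 to 5.11 with miR-23b-3p and 4.52 to 4.86 in controls, without overlap. The CLDN4 difference was 0.28 (SE 0.08; limma unadjusted p = 0.00395, adjusted p = 0.521). The GTPase gene ARF6 stood at 0.11 (SE 0.066) and E-cadherin, CDH1, at 0.082 (SE 0.058). In all, groups did not overlap for 3 of the 77 genes (3.9%), NCK2, CBL and CLDN4. The share was 1.35% over all probe sets and 3.16% over those with a mean above 5.

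**Figure D3:**
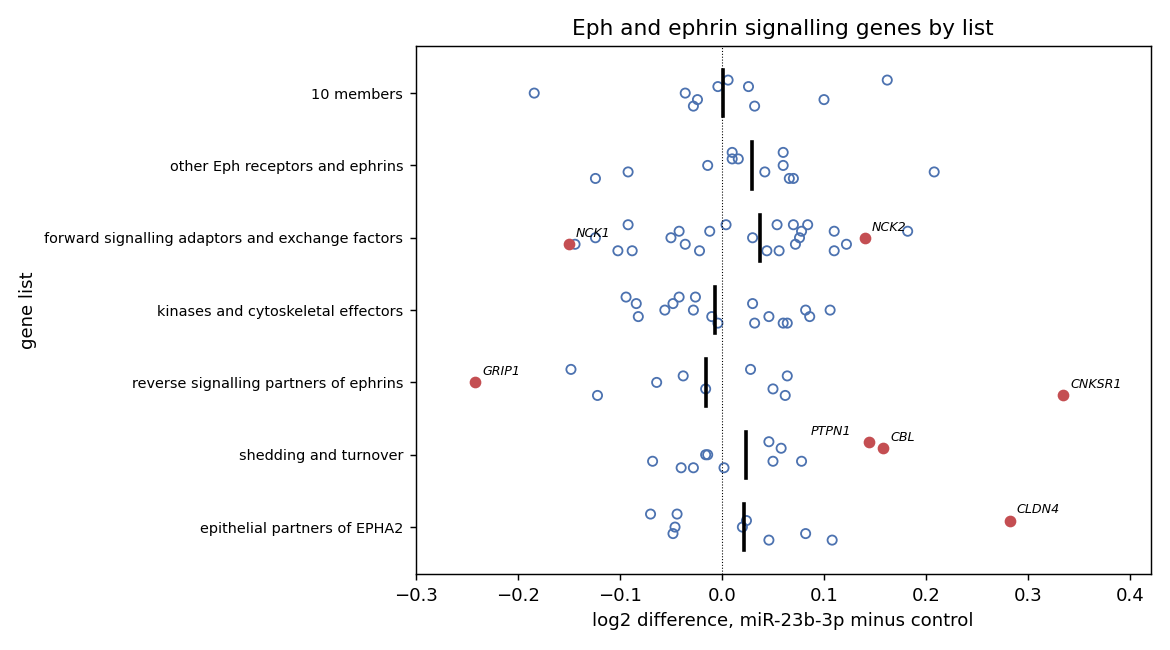
Log2 difference, miR-23b-3p minus control (x axis), of each gene in the 7 lists (y axis: the 10 genes, the 12 other family genes and the 5 signalling lists), with black bars for list medians and filled red points for an unadjusted limma p under 0.05. List medians lie between -0.016 and 0.037, and the 7 filled points, which carry gene names, are all outside the Eph and ephrin family.

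Folds in the authors' deposited table are ratios of these same array values, so they are not a second source. EFNB1 and EPHB4 have the largest of the 10 genes there. For EFNB1 the authors' deposited table has a fold of -1.13, where the minus sign marks a lower value, with p = 0.09 and q = 0.749. For EPHB4 the authors' deposited table has a fold of 1.12 with p = 0.121 and q = 0.765. Among the other 8 genes, folds in the authors' deposited table run from -1.03 for EPHB2 to 1.07 for EPHA4.

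Likeness of pattern was measured by Pearson's r over the 10 arrays, among 10084 named probe sets with a mean above 5, and is given as a description because the closest of so many candidates correlates highly by selection. EPHA2 was closest to ASB6 (r = 0.949), FBXW11 (r = 0.913) and MISP (r = 0.896). The EFNA1 pattern was closest to UIMC1 (r = 0.924), BRMS1L (r = 0.897) and ADCY3 (r = 0.89). No other gene of the family was among these.

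**Figure D4:**
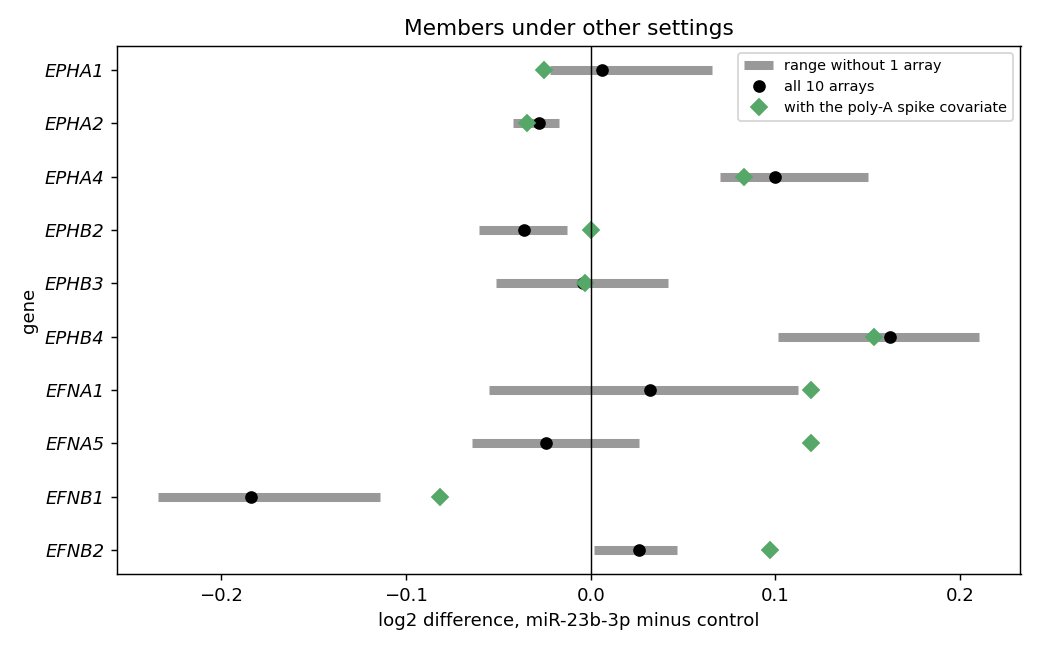
Log2 difference, miR-23b-3p minus control (x axis), of the 10 genes (y axis) with all arrays (black), as a range over the fits without 1 array (grey bars) and with the poly-A spike covariate (green). EPHB4 and EPHA4 stay above 0 and EFNB1 and EPHA2 below it in all of these, while the grey bars of EPHA1, EPHB3, EFNA1 and EFNA5 cross 0.

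The signs of the 3 differences farthest from 0 held under each setting tried that could change a difference. EPHB4 ranged from 0.10 to 0.21 without 1 array, EPHA4 from 0.07 to 0.15 and EFNB1 from -0.23 to -0.11. With the spike covariate EPHB4 stood at 0.15, EPHA4 at 0.083 and EFNB1 at -0.08, while EFNA1 and EFNA5 moved to 0.12 each and EFNB2 to 0.097. The lowest limma adjusted p of any of the 10 genes under any setting was 0.706, so 0 passed in every fit.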

How the data were processed

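Total RNA of 10 UT-SCC-12a samples was read on Affymetrix human gene arrays, grouped and numbered by sample title. Deposited log2 values were used as given; the submitters' processing notes name RMA and Transcriptome Analysis Console. Background was corrected by RMA, arrays were quantile normalized and probes summarised by median polish, per the file headers. Fold scores in the authors' deposited table are signed ratios. Its p-values and q-values were made by the authors with Student's t-test, as the file headers name it. The fold equalled miR-23b-3p over control for 53617 of 53617 probe sets (tolerance 0.001). Its 10 per-array columns match no sample label and were not used. Annotation is NetAffx build 36, hg19, per the file headers.

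Of 53617 probe sets, 5473 controls and reporters were left out. The other 48144 were fitted with limma 3.58.1 in R 4.3.3, without covariates, with Benjamini-Hochberg adjustment and a threshold of 0.05; SE is limma's moderated one. The fit was tested on simulated data. Exact two-sided permutation tests used all 252 choices of 5 arrays, with a smallest p of 0.00794, and are not adjusted. Symbols were updated by Entrez identifier for 29774 probe sets (RefSeq, GRCh38.p14, names only). Where a list gene had several probe sets the brightest stood for it. Alternatives were a replicate block, other priors, a filter on the dimmest 25%, median centring, renewed quantile normalization, array weights, Student's and Welch's tests, cross-hybridization type 1 only, a poly-A spike covariate, a stricter threshold and leaving out each array. The members and lists were chosen with earlier results of these data known. Named were all family genes, the 3 smallest p of each further list, RRAS2, MIR23B and the 3 genes most like EPHA2 and EFNA1; ADAM10 and the marker genes were added after values were seen.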

Additional observations from a re-analysis of the deposited data

Results flagged for a closer look

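In 78 groups of 5 arrays, 2 for each of 39 probe sets named, 3 single arrays stood far from the other 4 of their group by Dixon's criterion (0.71), which chance meets in about 1 of 20 groups. EPHA4 read 5.81 on miR-23b-3p replicate 1, where the other 4 arrays lay between 6.03 and 6.11. EPHA6 read 2.56 on miR-23b-3p replicate 3, below the 2.74 to 2.79 of the others, and EPHB1 read 3.56 on miR-23b-3p replicate 4, above 3.23 to 3.32; EPHA6 was under the antigenomic background on all arrays and EPHB1 near it.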

How the results depend on the processing

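The count of members called was 0 in each of the alternative fits, as was the count over the signalling lists and other family genes. All probe sets called numbered 9, and 1 with a replicate block, 26 with an intensity trend in the prior, 3 with Welch's test, 2 with the poly-A spike covariate, 5 at an adjusted threshold of 0.01 and 5 to 8 without single arrays. The labels do not state whether equal replicate numbers pair the arrays. Over all probe sets, deviations of same-numbered arrays correlated between -0.101 and 0.043, and 1 of 5 arrays matched its own number best. Such weak correlations do not settle whether the arrays were paired. With the replicate block 0 members were called. Of 210 combinations of a member and a setting, 189 kept their sign. Many of these could not turn. The replicate block, other priors, filter, Student's and Welch's tests and cross-hybridization selection leave the difference itself unchanged. EPHA1 turned to -0.01 with median centring, -0.0008 with array weights and -0.025 with the spike covariate, and EFNA5 to 0.12 with that covariate; the cause was not tested. Without single arrays EPHA1 ranged from -0.022 to 0.066, EPHB3 from -0.051 to 0.042, EFNA1 from -0.055 to 0.11 and EFNA5 from -0.064 to 0.026. Members with an exact permutation p under 0.05 numbered 0 to 1 without single arrays; that test was otherwise repeated only with median centring (0). With 5 arrays a group, differences inside the intervals given could not be resolved.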
